A study of Homo sapiens with 8 samples.

Results

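Some genes of a genome-wide CRISPR interference (CRISPRi) library are covered by separate sgRNA sets for a primary promoter, marked P1 in the sgRNA names, and for an alternative promoter, marked P2. The P2 sgRNAs of genes that have both sets, with a mean count of at least 20 over the 8 libraries, were 7000 sgRNAs of 1393 genes, out of 104881 sgRNAs that passed the same minimum and 209070 listed in all. The 6982 P1 sgRNAs of the same genes served as the comparison. Of 13930 P2 sgRNAs listed for these genes, 6890 had a count of 0 in every library and 40 had counts below the minimum. Each gene kept 3 to 8 P2 sgRNAs, and 1313 genes kept 5. For most other genes of the library, 16151 of those tested, a single set named P1P2 covers both promoters together.

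The libraries were amplified from genomic DNA of K562 cells, a human leukemia line, in a growth screen. All cells carried dCas9-KRAB and stably expressed either mutant or wild-type uL16, the large-subunit ribosomal protein encoded by RPL10. The labels give no treatment, do not name the mutation, and give neither the promoters that drive the transgenes nor whether a line is 1 clone. All cells were selected with puromycin after transduction, and the design text states the aim as finding quality control factors for defective large subunits. There were 4 groups of 2 libraries each, which were mutant uL16 at day 9, mutant uL16 at day 0, wild-type uL16 at day 9 and wild-type uL16 at day 0. The labels do not say that replicates came from separate cultures, so p-values measure the spread between these libraries, which may be technical.

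In CRISPRi, an sgRNA brings the inactive Cas9 with its KRAB repressor domain to DNA near a transcription start, and transcription from that start falls. When the gene is needed for growth, cells carrying the sgRNA become rarer and its counts drop. Repression by dCas9-KRAB works best close to the start that the cells use, so sgRNAs placed at an alternative start can be without effect in a cell type that does not use it. The converse also occurs, since many human genes use different starts in different tissues. Where promoters of neighbouring genes lie close together, sgRNAs aimed at one can also repress the other.

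Library totals ranged from 39233340 to 143585751 counts, and the median count of a P2 sgRNA ranged from 361 to 1282 over libraries. P2 sgRNAs took 7.30% to 7.36% of a library at day 9 and 7.08% to 7.11% at day 0. P1 sgRNAs of the same genes took 6.72% to 6.73% at day 9 and 6.68% to 6.70% at day 0. No expression was measured, so the cell line could not be checked against marker genes. Of 9 keratin and crystallin genes taken by name as not expressed in K562 cells, none fell at P2 or at P1 in either line. Over all 1393 genes, 1.08% fell at P2 and 7.04% at P1 in mutant cells, and 1.44% and 7.18% in wild-type cells. No fall among 9 genes is near these shares. Their median P2 changes were 0.05 in mutant and 0.02 in wild-type cells on the log2 scale, beside 0.01 over all sets in each line.

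By the positions in the sgRNA names, the P2 set lay a median of 6867 bp from the P1 set of its gene, with a range of 609 to 1165558 bp. The distance was under 1 kb in 41 genes, 1 to 10 kb in 785, 10 to 50 kb in 491 and over 50 kb in 76. P2 lay downstream of P1 in 691 genes and upstream in 465, and the strand was not resolved for the other 237. The sgRNAs of another gene lay within 1 kb of the P2 set in 201 genes. In 82 genes at least 1 P2 sgRNA, and in 44 genes every P2 sgRNA, was also listed under another gene with the same counts. P1 sets shared an sgRNA with another gene in 70 cases and shared all of them in 47.

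Few P2 sets changed in abundance over the screen. Counts were summed over the sgRNAs of each gene and promoter, and the change from day 0 to day 9 was tested with edgeR over all 20528 such sets, with a Benjamini-Hochberg adjusted p of 0.05 as the threshold. In mutant cells 15 of 1393 P2 sets fell (1.08%) and 7 rose (0.503%). Over all sets in mutant cells, 7.91% fell and 0.594% rose. In wild-type cells 20 P2 sets fell (1.44%) and 11 rose (0.79%), where 8.09% of all sets fell and 0.775% rose. The P1 sets of the same genes fell in 98 cases in mutant cells (7.04%) and in 100 cases in wild-type cells (7.18%). The shares that fell at P2 lay below those over all sets, and the shares that rose were near them, with no test of the difference between shares. Scaled to non-targeting control sgRNAs, 22 P2 sets fell and 6 rose in mutant cells, and 21 fell and 4 rose in wild-type cells. A fall of more than 1 on the log2 scale, with the test passed, was seen in 5 P2 sets against 38 P1 sets in mutant cells, and in 5 P2 sets against 36 P1 sets in wild-type cells. Over all 20528 sets, such falls numbered 603 in mutant and 600 in wild-type cells.

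P2 fell in both lines in 11 genes, out of 15 that fell in mutant and 20 in wild-type cells, which were AKNA, ATP5J2-PTCD1, CAST, CBFA2T3, CENPA, DNASE1L1, DPEP1, HR, OAZ3, PTCD1 and RCC1. P2 rose in both lines in 0 genes, out of 7 that rose in mutant and 11 in wild-type cells. The P1 sets of the same genes fell in both lines in 83 genes, out of 98 in mutant and 100 in wild-type cells, and rose in both in 2, out of 10 in mutant and 11 in wild-type cells. Differences between these overlaps were not tested. The counts of calls moved with single libraries. Without mutant day 0 replicate 1, 10 P2 sets passed in mutant cells in place of 22, and without wild-type day 9 replicates 1 or 2, 41 and 42 passed. In wild-type cells 16 and 15 passed without day 0 replicates 1 or 2, and 58 without day 9 replicate 1, in place of 31.

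CENPA, the histone H3 variant that marks centromeres, had the largest fall at P2 in both lines, and its P1 sgRNAs stayed near their day 0 level. The summed P2 counts, scaled to library size (CPM), were 2.50 and 1.52 at day 9 against 21.9 and 24.0 at day 0 in mutant cells. In wild-type cells they were 1.43 and 1.91 at day 9 against 24.4 and 24.0 at day 0, so the days were far apart in either line. The log2 change at P2 was -3.58 in mutant cells (SE 0.26, edgeR adjusted p = 2.44e-12) and -3.85 in wild-type cells (SE 0.27, edgeR adjusted p = 1.1e-12). At P1 it was 0.01 (SE 0.07) in mutant and 0.05 (SE 0.07) in wild-type cells. The 5 P2 sgRNAs changed by -4.80 to -2.41 on the log2 scale in mutant and by -4.25 to -3.41 in wild-type cells, and each passed the test alone. The P2 set lay 21777 bp downstream of the P1 set, and all 5 sgRNAs of the P1 set were also listed under SLC35F6. The P1 values given for CENPA are therefore also those of SLC35F6.

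CBFA2T3, a corepressor of the erythroid and megakaryocytic TAL1 complex, fell at a P2 set placed 35641 bp upstream of P1. Its P2 sgRNAs had 5.02 and 7.84 CPM at day 9 against 18.3 and 19.4 CPM at day 0 in mutant cells. Wild-type cells had 3.12 and 4.88 CPM at day 9 against 17.7 and 21.6 CPM at day 0, with no overlap of days in either line. Lack of overlap and a shared sign of most P2 sgRNAs were part of the rule that chose genes for a P2 change. In the line of choice these traits are therefore only a description, here and in the genes below. The log2 change at P2 was -1.53 in mutant cells (SE 0.25, edgeR adjusted p = 2.24e-05) and -2.30 in wild-type cells (SE 0.26, edgeR adjusted p = 3.85e-08). The P1 sgRNAs had 34.0 and 36.0 CPM at day 9 against 34.3 and 33.1 CPM at day 0 in mutant cells, a change of 0.06 (SE 0.12), and the change in wild-type cells was -0.15 (SE 0.12). All 5 P2 sgRNAs went down in both lines, and 2 of them passed alone in both. The larger fall in wild-type cells was not established, since the difference between the lines was 0.77 (SE 0.36, edgeR adjusted p = 0.901).

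RCC1, the nucleotide exchange factor that loads the Ran GTPase on chromatin, fell at a P2 set 12219 bp downstream of P1. P2 CPM were 7.37 and 9.81 at day 9 against 25.0 and 29.2 at day 0 in mutant cells, and 12.0 and 9.84 at day 9 against 31.2 and 25.9 at day 0 in wild-type cells. The groups did not overlap, and the changes were -1.64 in mutant (SE 0.18, edgeR adjusted p = 2.23e-08) and -1.38 in wild-type cells (SE 0.18, edgeR adjusted p = 6.43e-07). The sgRNAs within the set differed. Of the 5 P2 sgRNAs, the 4 that lay within 35 bp of each other changed by -4.31 to -4.74 in mutant and -1.89 to -5.00 in wild-type cells on the log2 scale, while the sgRNA 394 bp from the first changed by -0.01 in each line. At P1 the sum changed by -0.19 in mutant and by -0.20 in wild-type cells (SE 0.10 each), and neither passed.

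PTCD1, a mitochondrial pentatricopeptide-repeat protein of mitochondrial ribosome assembly, and the readthrough gene ATP5J2-PTCD1 were the only genes whose P2 and P1 both fell in both lines. They are not separate observations, since 5 of the 6 P2 sgRNAs of PTCD1 are the P2 sgRNAs of ATP5J2-PTCD1, and all 5 P1 sgRNAs of PTCD1 are shared too. PTCD1 P2 had 28.4 and 24.6 CPM at day 9 against 87.0 and 86.4 CPM at day 0 in mutant cells, and 22.1 and 23.0 CPM against 88.6 and 89.0 CPM in wild-type cells. Its P1 had 47.5 and 47.3 CPM at day 9 against 88.4 and 87.4 CPM at day 0 in mutant cells, and 46.3 and 46.2 CPM against 91.8 and 88.0 CPM in wild-type cells. Days did not overlap at either promoter. The P2 changes were -1.71 in mutant (SE 0.10, edgeR adjusted p = 7.59e-15) and -1.98 in wild-type cells (SE 0.10, edgeR adjusted p = 6.28e-16). P2 minus P1 was -0.83 in mutant (SE 0.14, edgeR adjusted p = 4.76e-06) and -1.02 in wild-type cells (SE 0.14, edgeR adjusted p = 6.25e-08). Without the most abundant sgRNA of each set this difference was 0.48 in mutant (edgeR adjusted p = 0.0973) and -0.20 in wild-type cells (edgeR adjusted p = 0.639). The P2 set also lay within 1 kb of the sgRNAs of CPSF4, a cleavage and polyadenylation factor, whose own set changed by -0.56 in mutant and -0.69 in wild-type cells. For ATP5J2-PTCD1, P2 minus P1 was -1.20 in mutant (SE 0.13, edgeR adjusted p = 1.72e-10) and -1.13 in wild-type cells (SE 0.13, edgeR adjusted p = 1.25e-09), and without the most abundant sgRNA of each set it did not pass in mutant cells, at -0.43 (edgeR adjusted p = 0.092).

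Smaller falls followed at genes of varied roles. SRSF11, a serine/arginine-rich splicing protein, had 18.1 and 16.2 CPM at day 9 against 25.6 and 31.5 CPM at day 0 at P2 in wild-type cells, a fall of 0.74 on the log2 scale (SE 0.16, edgeR adjusted p = 0.00158). Its fall was not called without wild-type day 0 replicate 2 (highest adjusted p = 0.115 over the alternatives), and the change in mutant cells, -0.42 (SE 0.16), did not pass. DNASE1L1, a DNase I-like nuclease, changed at P2 by -0.73 (SE 0.11, edgeR adjusted p = 5.64e-06) in mutant and -0.53 (SE 0.11, edgeR adjusted p = 0.000577) in wild-type cells, with 5 of 5 sgRNAs down in each line. FOXD3, a forkhead factor of pluripotent and neural crest cells, fell by 0.62 in wild-type cells (SE 0.11, edgeR adjusted p = 0.000123), and IL1RN, the interleukin-1 receptor antagonist, by 0.56 (SE 0.12, edgeR adjusted p = 0.00121). As sums, neither passed in mutant cells, at -0.22 for FOXD3 and -0.08 for IL1RN, and the differences between lines did not pass. In FOXD3 1 of the 5 P2 sgRNAs passed alone, in both lines, at -1.93 in mutant and -2.08 in wild-type cells, and in IL1RN 1 of 5 passed alone, in mutant cells, at -1.36. In mutant cells HR, a nuclear receptor corepressor, changed by -0.66 (SE 0.12, edgeR adjusted p = 9.33e-05), and EPS8L1, of the EPS8 actin-regulator family, by -0.49 (SE 0.11, edgeR adjusted p = 0.00227). Without the most abundant sgRNA, HR changed by -0.20 (edgeR adjusted p = 0.573), and EPS8L1 did not pass without mutant day 0 replicate 1 (adjusted p = 0.0576). In EPS8L1 1 of the 5 P2 sgRNAs passed alone, at -3.51 in mutant and -2.15 in wild-type cells, and the other 4 lay between -0.30 and -0.03 in mutant cells. In HR 1 of 5 passed alone, at -1.95 in mutant and -1.49 in wild-type cells.

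LDB1, the scaffold that bridges TAL1 complexes between enhancers and promoters, fell at P2 in wild-type cells through a single sgRNA. Its 4 P2 sgRNAs summed to 18.5 and 16.5 CPM at day 9 against 23.0 and 27.4 CPM at day 0 in wild-type cells, a change of -0.53 (SE 0.16, edgeR adjusted p = 0.0366). In mutant cells they summed to 15.6 and 18.9 CPM at day 9 against 21.9 and 23.6 CPM at day 0, a change of -0.39 (SE 0.16) that did not pass. The sgRNA 42 bp from the first changed by -1.76 in mutant and -3.90 in wild-type cells and passed alone in each, and the other 3 lay between -0.87 and 0.16 in mutant and between -0.42 and 0.30 in wild-type cells. The fall of the sum was lost in 5 of the fits that left out a library, with wild-type day 0 replicate 1 or 2, wild-type day 9 replicate 2, or mutant day 0 replicate 1 or 2 removed. At P1 the log2 change was 0.00 in mutant and 0.31 in wild-type cells (SE 0.12 each), and neither passed.

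Some P2 sets that fell lie beside sgRNAs of another gene that fell. The P2 set of OAZ3, an ornithine decarboxylase antizyme of the testis, shares 4 of its 6 sgRNAs with MRPL9, a protein of the mitochondrial ribosome. OAZ3 P2 had 30.0 and 29.3 CPM at day 9 against 56.9 and 51.0 CPM at day 0 in mutant cells, and 28.8 and 31.4 CPM against 51.2 and 51.3 CPM in wild-type cells. The change was -0.86 in mutant (SE 0.11, edgeR adjusted p = 1.79e-07) and -0.77 in wild-type cells (SE 0.11, edgeR adjusted p = 1.89e-06), and that of MRPL9 was -1.05 in mutant and -1.07 in wild-type cells. OAZ3 P1, which is placed 3616.5 bp away, changed by 0.17 in mutant and 0.03 in wild-type cells. PSPH, the phosphoserine phosphatase that completes serine synthesis, changed at P2 by -0.22 in mutant cells and by -0.47 in wild-type cells (SE 0.11, edgeR adjusted p = 0.00256). Its P2 set lies 187 bp from the sgRNAs of CCT6A, a subunit of the cytosolic chaperonin, which changed by -1.62 in mutant and -1.46 in wild-type cells.

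Over all genes, 4 of the 15 P2 sets that fell in mutant cells (26.7%) and 4 of the 20 that fell in wild-type cells (20%) had a fallen set of another gene within 10 kb. Among P2 sets that did not fall these shares were 3.48% in mutant and 3.79% in wild-type cells. The 4 genes were ATP5J2-PTCD1, ENO3, OAZ3 and PTCD1 in mutant cells and ATP5J2-PTCD1, OAZ3, PSPH and PTCD1 in wild-type cells. All of these but PSPH share sgRNAs with the fallen neighbour, so the same counts enter both sets, and PTCD1 and ATP5J2-PTCD1 are neighbours of each other. The contrast between these shares is therefore partly fixed by the shared sgRNAs. CENPA, CBFA2T3 and RCC1 had no tested set of another gene within 10 kb of P2. P2 sets that shared an sgRNA with a fallen gene numbered 8 in mutant cells, of which 4 fell, and 9 in wild-type cells, of which 3 fell, with a median P2 change of -0.19 in each line. Most P2 sets beside a fallen gene with no shared sgRNA did not fall. The share that fell was still above that over all P2 sets, 1.08% in mutant and 1.44% in wild-type cells. In mutant cells 13 P2 sets lay within 1 kb of a fallen gene with which they shared no sgRNA, with a median change of 0.01 at P2. Of these 2 fell, ATP5J2-PTCD1 and PTCD1. In wild-type cells 17 P2 sets did so, with a median of 0.05, and 3 fell, ATP5J2-PTCD1, PSPH and PTCD1. ATP5J2-PTCD1 and PTCD1 are also counted above as sharing sgRNAs with a fallen gene, so the classes overlap. The part of neighbouring genes in the P2 falls was not tested.

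The rises at P2 were smaller than the largest falls. In mutant cells LIN54, a DNA-binding subunit of the DREAM complex, had 60.5 and 57.0 CPM at P2 at day 9 against 41.4 and 46.3 CPM at day 0, a rise of 0.42 (SE 0.11, edgeR adjusted p = 0.0132). DNAJC5B rose by 0.42 and COMMD6 by 0.39 there (SE 0.12 each). In wild-type cells FOXO3, a forkhead factor that restrains proliferation, had 44.7 and 48.4 CPM at P2 at day 9 against 29.2 and 39.1 CPM at day 0, a rise of 0.45 (SE 0.13, edgeR adjusted p = 0.0163). The days did not overlap, and in mutant cells the FOXO3 change was -0.09 (SE 0.12). ZNF436 rose by 0.47 (SE 0.14), the protocadherin gene PCDH10 by 0.37 and the dynein gene DNAH8 by 0.36 (SE 0.11 each) in wild-type cells. Each of these 7 rises was lost in at least 1 fit that left out a library of its own line: FOXO3 without wild-type day 0 replicate 1 or day 9 replicate 2, PCDH10 without day 0 replicate 2 or day 9 replicate 2, ZNF436 without day 0 replicate 1 or 2 or day 9 replicate 1, and DNAH8 without day 0 replicate 1 or 2 or day 9 replicate 2. LIN54 and DNAJC5B were lost without mutant day 0 replicate 1 or day 9 replicate 1, and COMMD6 when any 1 of the 4 mutant libraries was left out. Other fits also lost some of these rises. With limma, ZNF436, DNAH8, LIN54, DNAJC5B and COMMD6 did not pass. LIN54 and DNAJC5B also did not pass without the most abundant sgRNA of each set, nor DNAH8 when scaled to control sgRNAs.

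In genes whose P1 set fell, P2 stayed near 0. The 98 genes that fell at P1 in mutant cells had a median P2 change of 0.05 against a median P1 change of -0.87, and 3 of them fell at P2. The 100 genes that fell at P1 in wild-type cells had a median P2 change of 0.03 against -0.82 at P1, and 2 fell at P2. The middle 80% of the P2 changes of these genes lay between -0.11 and 0.17 in mutant and between -0.11 and 0.19 in wild-type cells. ZMYM3, a zinc-finger protein of histone deacetylase complexes, was the gene that fell at both promoters in mutant cells beside PTCD1 and ATP5J2-PTCD1, with -0.34 at P2 (SE 0.09, edgeR adjusted p = 0.0122) and -0.71 at P1. Its sets lie 966 bp apart, and the P2 fall was lost without mutant day 0 replicates 1 or 2 or mutant day 9 replicate 2. LSM5, a subunit of the ring that binds U6 RNA, and DDB1, the adaptor of CUL4 ubiquitin ligases, went opposite ways at the promoters. LSM5 P2 rose by 0.40 in wild-type cells (SE 0.10, edgeR adjusted p = 0.00462) while P1 changed by -1.23, and DDB1 P2 rose by 0.43 in mutant cells (SE 0.13, edgeR adjusted p = 0.0302) while P1 changed by -0.39. Neither rise held in every fit that left out a library, since LSM5 did not pass without wild-type day 0 replicate 1 or 2, and DDB1 did not pass when any 1 of the 4 day 0 libraries, or mutant day 9 replicate 1, was left out. With limma the DDB1 rise did not pass either.

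The difference between promoters was then tested within each library. P2 minus P1 of the day 9 against day 0 change passed in 99 genes in mutant cells, of which 83 had P2 above P1 (5.96% of 1393) and 16 had P2 below P1 (1.15%). In wild-type cells it passed in 106 genes, 87 with P2 above P1 (6.25%) and 19 with P2 below P1 (1.36%). In both lines 69 genes had P2 above P1, and 9 had P2 below P1, which were ATP5J2-PTCD1, CAST, CBFA2T3, CENPA, DPEP1, HR, OAZ3, PTCD1 and RCC1. In mutant cells HR, at -0.69, was lost without day 0 replicate 1, without day 9 replicate 1 and without the most abundant sgRNA (-0.22, edgeR adjusted p = 0.729), and OAZ3, at -1.02, was lost with limma (-0.48, adjusted p = 0.261). Of the genes that fell at P1 by more than 1, all 38 in mutant and all 36 in wild-type cells passed with P2 above P1. The fall at P1 both chose these genes and enters the difference, so those counts are a description. Without wild-type day 0 replicate 2, 66 genes passed in wild-type cells in place of 106.

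SEC61A1, the pore of the endoplasmic reticulum translocon, had 62.7 and 62.2 CPM at P2 at day 9 against 58.4 and 56.4 CPM at day 0 in mutant cells, and 59.6 and 69.7 CPM against 61.5 and 57.8 CPM in wild-type cells. Its P1 sgRNAs had 1.37 and 1.14 CPM at day 9 against 26.8 and 27.1 CPM at day 0 in mutant cells, and 2.03 and 2.34 CPM against 26.8 and 22.3 CPM in wild-type cells. P2 minus P1 was 4.58 in mutant (SE 0.20, edgeR adjusted p = 6.57e-25) and 3.60 in wild-type cells (SE 0.20, edgeR adjusted p = 3.99e-21). At P2, 12507 bp downstream of P1, the change was 0.12 in each line (SE 0.09 each) and did not pass. SF3A2 of the U2 snRNP differed by 2.70 in mutant and 3.65 in wild-type cells, the tri-snRNP protein USP39 by 2.17 in mutant and 2.78 in wild-type cells, and the splicing factor WBP11 by 2.89 in mutant and 2.13 in wild-type cells. The SE of these differences was 0.42 in mutant and 0.46 in wild-type cells for SF3A2, and lay between 0.21 and 0.35 for USP39 and WBP11. The mitochondrial RNA helicase DHX30 differed by 2.12 in mutant and 2.54 in wild-type cells, and the initiation factor EIF4G2 by 2.17 in mutant and 2.28 in wild-type cells. The nucleolar protein NCL differed by 1.98 in mutant and 1.94 in wild-type cells, and COPZ1 of the COPI coat by 1.73 in mutant and 1.93 in wild-type cells. CKAP5, a microtubule polymerase, differed by 2.17 in mutant and 1.23 in wild-type cells. The zinc-finger gene ZNF574 differed by 2.40 in mutant cells (SE 0.17, edgeR adjusted p = 7.17e-17) and by 0.20 in wild-type cells, where it did not pass (edgeR adjusted p = 0.625). Each of the other differences passed with an edgeR adjusted p of at most 2.98e-05, the value of CKAP5 in wild-type cells.

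Genes were also grouped by common role. With P2 falls in 1.08% of the 1393 genes in mutant and 1.44% in wild-type cells, a group of a few genes with no P2 fall is near that share, and the P1 counts are to be read beside 7.04% in mutant and 7.18% in wild-type cells. Of 12 ribosome assembly factors with both sets, 0 fell and 1, C1orf109, rose at P2 in mutant cells (0.39, SE 0.09, edgeR adjusted p = 0.00374), where 10 fell at P1, and in wild-type cells 0 passed at P2, where 8 fell at P1. The C1orf109 rise was lost without mutant day 0 replicate 1 and with limma (adjusted p up to 0.164), and its P2 set lies within 1 kb of the sgRNAs of CDCA8, a subunit of the chromosomal passenger complex, which changed by -0.96 in mutant cells. Their median P2 changes were 0.09 in mutant and 0.00 in wild-type cells, against P1 medians of -0.87 in mutant and -0.50 in wild-type cells. Of 10 splicing and RNA processing genes, 0 fell at P2 in mutant and 1, SRSF11, in wild-type cells, where LSM5 rose, against 7 falls at P1 in mutant and 8 in wild-type cells. Of 6 proteasome, ubiquitin and cullin genes none fell at P2, where 1, DDB1, rose in mutant cells, and 3 fell at P1 in each line. Of 7 transcription genes none fell at P2, against 4 at P1 in mutant and 3 in wild-type cells, and 1 rose at P1 in mutant cells. Of 8 translation factors and tRNA synthetases none fell at P2, against 3 at P1 in mutant and 2 in wild-type cells. The list of DNA replication and repair held only CDKN2A, CDKN2C and TP53BP1, and these 3 genes had no fall at either promoter. Of 2 genes of mitochondrial translation, PTCD1 fell at P2 and both, PTCD1 and MRPL30, fell at P1 in each line. Of 7 respiratory chain genes, ATP5J2-PTCD1 alone fell at P2 in each line, against 6 at P1 in each. Chromatin regulators, 14 genes, had no fall at P2 in either line, against 4 at P1 in mutant and 5 in wild-type cells. At P1, 1 chromatin regulator rose in mutant and 2 in wild-type cells, beside P1 rises in 0.718% and 0.79% of the 1393 genes. The 11 genes of protein targeting and traffic had no fall at P2, against 5 at P1 in each line. The 19 metabolic genes had 0 falls at P2 in mutant and 1, PSPH, in wild-type cells, against 5 and 7 at P1. Among 13 genes of mitosis and the cytoskeleton, CENPA alone fell at P2 in each line, against 5 at P1 in each.

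Other groups had few falls at either promoter. The 22 K562 lineage, oncogene and signalling genes had 0 falls at P2 in mutant and 1, LDB1, in wild-type cells, against 0 and 1, MYCN, at P1. Of 5 nuclear pore and transport genes, RCC1 alone fell, at P2 in each line. Among 5 cytosolic ribosomal protein genes none fell at P2 and 2 fell at P1 in each line.

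Most P2 falls lay in the 2 middle classes of distance between the sets. These classes also hold most of the genes, 785 and 491 of 1393, so that count alone is no result about distance. In mutant cells P2 fell in 1 of 41 genes with sets under 1 kb apart, 5 of 785 at 1 to 10 kb (0.637%), 9 of 491 at 10 to 50 kb (1.83%) and 0 of 76 beyond. In wild-type cells the counts were 0, 10 (1.27%), 10 (2.04%) and 0. Over all 1393 genes, which share libraries, Pearson's r between the P2 and P1 changes was 0.00 in mutant and 0.02 in wild-type cells. Within the 41 genes under 1 kb it was 0.14 in mutant and 0.32 in wild-type cells. Spearman's rank correlation in these 41 genes was -0.12 in mutant and 0.44 in wild-type cells, so the sign in mutant cells depended on the measure. In each line 3 of those genes fell at P1, NPY, PSMG3 and ZMYM3. P2 sets upstream of P1 fell in 8 of 465 genes (1.72%) in each line, and downstream sets in 5 (0.724%) in mutant and 7 (1.01%) of 691 in wild-type cells. None of these differences was tested.

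At the level of single sgRNAs, most falls at P2 came from sgRNAs that stood alone in their gene. In mutant cells 1.56% of the 7000 P2 sgRNAs fell and 0.171% rose, where 5.0% of all sgRNAs fell and 0.165% rose. In wild-type cells 1.44% fell and 0.214% rose, where 5.12% of all fell and 0.267% rose. P1 sgRNAs of the same genes fell in 4.94% in mutant and 4.87% in wild-type cells, and non-targeting control sgRNAs in 0.528% and 0.581%. The fallen P2 sgRNAs belonged to 88 genes in mutant cells, 76 of which had just 1, and to 81 genes in wild-type cells, 72 of which had just 1. Those with just 1 were 86.4% in mutant and 88.9% in wild-type cells at P2, against 57.2% and 57.7% at P1. In both lines 77 P2 sgRNAs fell (1.1% of 7000), compared with 272 P1 sgRNAs (3.9% of 6982) and 7 control sgRNAs (0.37% of 1894). Counts of P2 sgRNAs that passed in either direction moved with single libraries, to 73 and 70 without mutant day 0 replicates 1 and 2, in place of 121 in mutant cells, and to 182 without wild-type day 9 replicate 1, in place of 116 in wild-type cells. The 77 sgRNAs that fell in both lines lay in 62 genes. The 8 genes with 2 or more of them all passed as sums in both lines. The sums contain these same sgRNAs, so this overlap of calls is partly built in. These 8 genes were CENPA with 5, PTCD1 with 4, ATP5J2-PTCD1 and RCC1 with 3, and CAST, CBFA2T3, DPEP1 and OAZ3 with 2.

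CAST and DPEP1, named after their values were seen, show how such sums can rest on part of a set. CAST encodes the calpain inhibitor calpastatin and DPEP1 a membrane dipeptidase. The CAST P2 sum changed by -0.39 in mutant (SE 0.09, edgeR adjusted p = 0.0018) and -0.54 in wild-type cells (SE 0.09, edgeR adjusted p = 2.36e-05). Its sgRNAs at 0 and 465 bp from the first changed by -1.67 and -1.09 in mutant and by -2.31 and -1.43 in wild-type cells, and the other 3 did not pass. For DPEP1 the P2 sum changed by -0.50 in mutant (SE 0.12, edgeR adjusted p = 0.00436) and -0.54 in wild-type cells (SE 0.12, edgeR adjusted p = 0.00214). Here too the sgRNAs at either end of the set, 526 bp apart, passed alone in both lines, and the other 3 did not.

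The P2 and P1 sets also differed at day 0. The level per sgRNA at day 0, as a median over sgRNAs, was 8.98 CPM at P2 and 8.55 CPM at P1. Per gene, the median log2 ratio of P2 over P1 at day 0 was 0.08 in each line. It was larger where P1 later fell by more than 1. With genes chosen on mutant cells and day 0 read in wild-type libraries, the ratio was 0.64 over 38 genes, against 0.06 over the 1295 genes whose P1 did not fall. With genes chosen on wild-type cells and day 0 read in mutant libraries, it was 0.66 over 36 genes, against 0.06 over 1293. In these genes P2 was above P1 at day 0 in 76.3% and 88.9% of cases, and in 54.7% and 54.9% of the genes without a fall at P1. Whether the sgRNAs entered the cells at equal levels was not tested, since no earlier library was analysed here.

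The P2 change did not differ detectably between the lines in any gene. For the mutant minus wild-type difference, edgeR called 0 of 1393 P2 sets, where 0.0146% of all sets passed, and 63 P2 sets had an unadjusted p under 0.05. DESeq2 called 1. The smallest p belonged to URGCP, an upregulator of cell proliferation, at -0.45 (SE 0.13, edgeR adjusted p = 0.804), with 49.2 and 45.7 CPM at day 9 against 58.3 and 56.9 CPM at day 0 in mutant cells and 64.0 and 59.9 CPM against 52.7 and 57.5 CPM in wild-type cells. It was followed by C17orf64 at 0.46 and RNF207 at -0.34, and none of the 3 passed. ZNF574, the zinc-finger gene of the study's title, was the 1 gene of 1393 (0.0718%) in which P2 minus P1 of the difference passed, at 2.20 (SE 0.23, edgeR adjusted p = 9.39e-10). Leaving out wild-type day 9 replicate 1 gave 3 such genes, and leaving out either mutant day 9 library gave 2. Its P2 sgRNAs, 3367 bp downstream, had 58.9 and 58.4 CPM at day 9 against 59.1 and 57.9 CPM at day 0 in mutant cells, a change of 0.00 (SE 0.09), while P1 had 7.03 and 7.15 CPM against 38.0 and 36.9 CPM, a change of -2.40 (SE 0.15). In wild-type cells P2 changed by -0.18 (SE 0.09, edgeR adjusted p = 0.28) and P1 by -0.37 (SE 0.14, edgeR adjusted p = 0.0954).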

How the data were processed

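The authors deposited a table of raw counts per sgRNA, with 1 column for each of 8 libraries. Per the file headers, trimmed reads were matched in forward orientation to a human CRISPRi library. The submitters' processing notes name the build hg38, and no source used here names the counting program. Positions in the sgRNA names gave distances only; they were not set on a reference build, so no coordinates are printed, and sgRNA sequences were not used here. Gene symbols matched the RefSeq table for 1311 of the 1393 genes and an older synonym for 81, and a strand was available for 1156.

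Sets of a gene and promoter needed at least 3 sgRNAs with a mean count of at least 20. Counts were summed per set and fitted in R 4.3.3 with edgeR 4.0.16 (TMM, glmQLFit and glmQLFTest, 1 mean per group over all 8 libraries, 4 residual degrees of freedom), with Benjamini-Hochberg adjustment over 20528 sets. P2 minus P1 was tested on 16 columns, with library as a factor and promoter terms within groups, over 1393 genes. Single sgRNAs were fitted likewise, 104881 in number. Log2 changes are fitted from the deposited counts, and the SE follows from the test statistic. The fits were tested on simulated data. Genes were named by a rule: the largest P2 falls and rises and P2 minus P1 differences past the threshold, the 2 lowest p-values per list in wild-type cells, and ZNF574. For the P2 falls and rises, the rule also required most P2 sgRNAs to have the same sign and the days not to overlap in that line. NPY, PSMG3, AKNA, CAST, DPEP1, ENO3, MYCN and CDKN2C were named after their values were seen. So were the neighbouring genes SLC35F6, CPSF4, MRPL9, CCT6A and CDCA8, and the count of fallen sets within 10 kb was added then. The members and lists were chosen with earlier results of these data known. Alternatives were other scalings, count filters, DESeq2 1.42.0, limma 3.58.1, fewer libraries, sgRNAs or sets, and a replicate block. Genes that the rule chose from the lists and that the text does not name did not pass at P2 in either line.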

Additional observations from a re-analysis of the deposited data

Results flagged for a closer look

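ZNF574 differed between the lines by promoter: the mutant minus wild-type difference at P2 minus that at P1 was 2.20 on the log2 scale (SE 0.23, edgeR adjusted p = 9.39e-10). The P2 change was 0.00 in mutant and -0.18 in wild-type cells, and the P1 change was -2.40 in mutant and -0.37 in wild-type cells.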

How the results depend on the processing

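The number of P2 sets that passed was 22 in mutant cells, against 60 with DESeq2 (32 higher, 28 lower), 50 with limma (2 higher, 48 lower) and 13 without P2 sets near other genes or P1, where fewer sets are counted, and it ranged from 10 to 42 with a library left out. In wild-type cells it was 31, against 83 with DESeq2 (50 higher, 33 lower) and 51 with limma (9 higher, 42 lower), and ranged from 15 to 58. P2 minus P1 in mutant cells gave 99, and ranged from 76 to 119 with a library left out. There it was 127 with DESeq2, 134 with limma and 106 without the most abundant sgRNA of each set. P2 minus P1 in wild-type cells gave 106, and ranged from 66 (without wild-type day 0 replicate 2) to 124 with a library left out. There it was 145 with DESeq2, 135 with limma and 125 without the most abundant sgRNA of each set. The difference between lines at P2 stayed at 0 in every fit with a library left out, with 29 to 136 sets at an unadjusted p under 0.05, and was 1 with DESeq2. P2 minus P1 of the difference gave 1 to 3 genes in those fits and 3 with DESeq2. Single P2 sgRNAs numbered 121 in mutant cells (224 with DESeq2, 70 to 155 with a library left out; 73 and 70 without mutant day 0 replicates 1 and 2) and 116 in wild-type cells (302 with DESeq2, 79 to 182, the highest without wild-type day 9 replicate 1). Their median change, 0.05 in each line, was 0.0044 in mutant and 0.00027 in wild-type cells when scaled to control sgRNAs, and 0.044 in wild-type cells with a mean count of at least 100. PTCD1 P2 minus P1 in mutant cells reversed to 0.48 without the most abundant sgRNA of each set. Values near 0 that changed sign were MRPL30 at P2 in wild-type cells (0.0019 without wild-type day 9 replicate 2, and -0.11 without replicate 1 as the other end of the leave-one-out range) and ZNF574 at P2 in mutant cells (-0.027 scaled to control sgRNAs, -0.013 without mutant day 0 replicate 2, -0.0028 without mutant day 9 replicate 1; the highest was 0.017 with a library left out, without mutant day 0 replicate 1, and 0.083 over all alternatives, without the most abundant sgRNA). Of 63 named results that passed, 40 passed in every alternative. The causes were not tested.

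With the replicate number as a block, 23 P2 sets passed in mutant and 32 in wild-type cells, 94 and 97 genes for P2 minus P1, 0 and 1 for the differences between lines, and 124 and 123 single sgRNAs. Same-numbered libraries did not deviate together (correlations of -0.01 to 0.05), so the numbers were not read as pairs, and the block moved no count by more than 1.5 times. Summed counts of 2 libraries per group limit the detection of small changes, and a p that misses the threshold does not show that P2 sgRNAs had no effect.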
